A study of Mus musculus with 1778 samples.

Results

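The late dorsal neural tube cells were those cells of 8 and 10 somite mouse embryos that carried the transcripts of the dorsal neural tube. A cell was a member when at least 2 of the 5 genes Msx3, Wnt3a, Olig3, Irx2 and Wnt1 stood at 20 CPM or more. CPM are reads of a gene per 1000000 reads of the cell, leaving out the spike-ins and Rn45s, the 45S ribosomal precursor. The members were thus chosen by measured levels of these 5 genes. There were 97 members, 14.4% of the cells of both stages kept for at least 50000 reads on genes and 1500 detected genes. Kept cells of these stages were 37.9% of the 1778 cells of the whole series. The series profiled single cranial neural crest cells sorted by flow cytometry from C57BL/6 embryos of the genotype Wnt1::Cre; Rosa26TdTomato, dissected at 4, 6, 8 or 10 somites, with the Smart-Seq2 full-length method. In this genotype Cre is driven by Wnt1 regulatory sequence and switches on a red fluorescent reporter, so a cell keeps the label after Wnt1 transcription has ended. All groups share genotype and strain, and no embryo or litter is named, so each stage was treated as 1 pool and no test between cells was made. The groups were the 97 members, of which 63 had Sox10 at 20 CPM or more and 34 did not, and the other kept cells of the same stages, 85.6% of all kept.

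The dorsal neural tube forms where the edges of the neural plate fold up and meet. Its cells make Wnt and BMP ligands, divide as neural progenitors, and give rise to the neural crest, whose cells lose their epithelial contacts, leave the tube and turn on Sox10, a transcription factor of early and migrating crest. A cell about to leave the tube, or just past it, would carry dorsal tube transcripts and Sox10 together, although a transcript may outlast the transcription of its gene.

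The rule genes have different roles. Msx3 (mm10, chromosome 7, 140046157 to 140049089, minus strand) encodes a homeobox factor of the dorsal tube, and Olig3 (chromosome 10, 19356533 to 19358604, plus strand) a basic helix-loop-helix factor of dorsal progenitors. Irx2 (chromosome 13, 72628820 to 72634198, plus strand) encodes an Iroquois homeobox factor of neural patterning. Wnt3a (chromosome 11, 59248033 to 59290752, minus strand) and Wnt1 (chromosome 15, 98789857 to 98793837, plus strand) encode ligands of the dorsal midline. Sox10 lies on chromosome 15 (79154908 to 79165240, minus strand). Wnt1 also drives the Cre of this cross, and reads from any Wnt1 sequence in the transgene could not be told from those of the gene itself.

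The promoters of 4 rule genes are shown. Transcripts of Msx3 and Olig3 were found mostly beside hindbrain genes, as described further on, and those of Wnt3a and Wnt1 beside Otx2 and hindbrain genes alike. Each run is the 250 bases before the RefSeq start on GRCm38.p6, 5′ to 3′ on the gene's strand, with matches to a SOX core in capitals (ACAATG, or CATTGT on the other strand).
Msx3, chr7:140049089-140049338, minus strand: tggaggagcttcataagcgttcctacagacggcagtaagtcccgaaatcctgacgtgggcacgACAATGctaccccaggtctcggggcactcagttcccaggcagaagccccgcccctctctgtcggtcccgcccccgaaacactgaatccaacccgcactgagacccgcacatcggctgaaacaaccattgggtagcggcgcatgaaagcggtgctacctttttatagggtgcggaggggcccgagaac
Olig3, chr10:19356289-19356538, plus strand: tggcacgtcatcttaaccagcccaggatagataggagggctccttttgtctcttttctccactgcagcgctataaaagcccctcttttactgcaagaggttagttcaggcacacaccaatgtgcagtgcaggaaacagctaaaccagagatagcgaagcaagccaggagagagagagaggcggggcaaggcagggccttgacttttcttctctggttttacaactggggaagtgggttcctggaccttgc
Wnt3a, chr11:59290752-59291001, minus strand: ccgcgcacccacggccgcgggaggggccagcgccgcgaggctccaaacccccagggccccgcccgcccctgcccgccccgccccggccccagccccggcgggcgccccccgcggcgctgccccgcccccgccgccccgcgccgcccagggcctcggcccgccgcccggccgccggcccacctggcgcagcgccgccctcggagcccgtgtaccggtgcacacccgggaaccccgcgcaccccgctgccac
Wnt1, chr15:98789607-98789856, plus strand: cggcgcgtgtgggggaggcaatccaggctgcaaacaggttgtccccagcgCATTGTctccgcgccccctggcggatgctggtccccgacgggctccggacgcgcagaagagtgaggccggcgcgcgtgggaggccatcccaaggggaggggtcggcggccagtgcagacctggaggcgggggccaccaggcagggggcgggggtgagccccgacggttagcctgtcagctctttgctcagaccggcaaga
The Wnt3a run is 87.6% G and C and the Wnt1 run 71.6%, against 60% for Msx3 and 51.6% for Olig3. A SOX core stands once in the Msx3 run and once in the Wnt1 run, and 10.7% of the 32851 RefSeq promoters of this length hold at least 1. The TCF/LEF core CTTTGA, present in 13.8% of promoters, and the OTX core TAATCC, present in 6.25%, stand in none of the 5 rule genes' runs on either strand. A match is a string of letters and says nothing about binding.

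Depth was alike in both groups. Members had 228253 to 1837058 reads on genes (median 905469) and other cells 92185 to 1570737 (median 820336). Rn45s took 47.9% of the reads of the 8 and 10 somite cells. Each library's title gives a well and a 7-digit number, taken here as a plate although the labels do not say what it means. The 8 numbers of the series are named A to H in ascending order. Cells of 10 somites lie on plates B, C and G and those of 8 somites on B and D, so stage and plate were confounded except on B, which holds both and some of 6 somites. Wells differed in the number of genes detected, with a second mode above 9000 genes. Of the kept wells 22.7% had 9000 genes or more, and 99.3% of these were Sox10-positive. Gene-rich wells made up 74.3% of the 70 wells in plate columns 1 and 24, against 16.7% of the wells in other columns. Reads per spike-in read, compared within 14 plate columns, differed by plate: the log2 difference, gene-rich minus other wells, was -0.08 to 0.43 in 8 columns of plate B (median 0.08) and -4.33 to -0.06 in 6 columns of C (median -2.94). Whether such a well held more than 1 cell was not tested. Members took 41 of the gene-rich wells, all Sox10-positive, and 56 of the other wells, 22 of them Sox10-positive. Results are therefore given with and without the gene-rich wells.

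**Figure D1:**
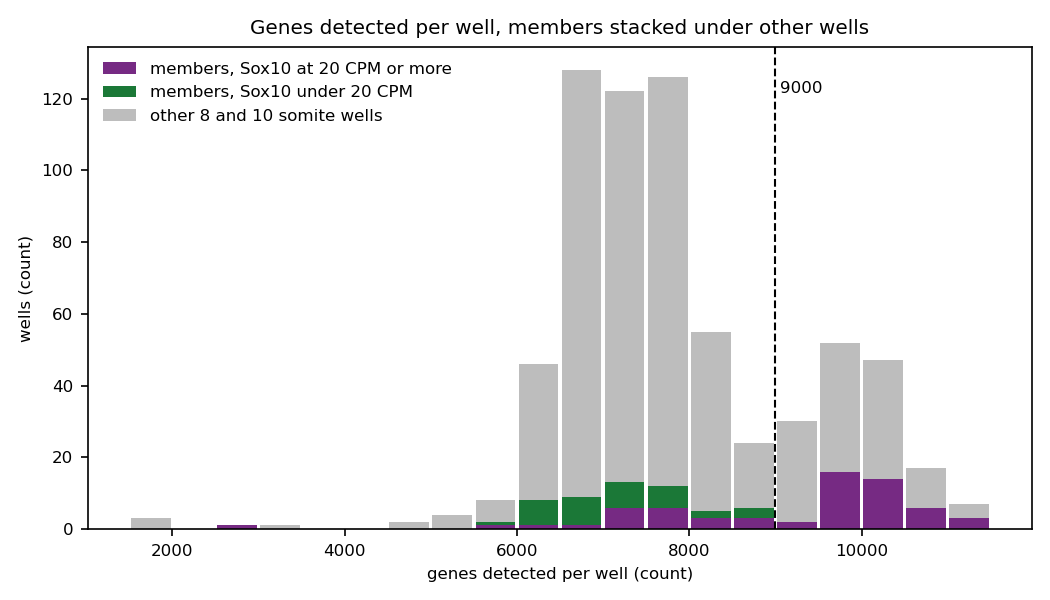
Number of wells (vertical axis) by genes detected per well (horizontal axis, bins of 500 genes), with members stacked under the other wells of 8 and 10 somites. Of the 63 Sox10-positive members 41 lie above the dashed line at 9000 genes, while members with Sox10 under 20 CPM lie entirely below it.

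Members were a minority in every large pool. They made up 14.4% of the kept cells (95% exact binomial interval 11.8 to 17.3) and 10.8% of the cells in wells under 9000 genes (8.24 to 13.8). Intervals of shares and of summed reads cover counting error only, since reads were amplified and carry no molecular identifier. At 10 somites the share was 20% (11 of 55) on plate B, 9.23% (35 members) on C and 58.3% (7 of 12) on G. At 8 somites it was 15.1% (32 members) on B and 80% (12 of 15) on D. The pools of 12 and 15 cells, where the share was highest, were also mostly gene-rich, while most members came from C at 10 somites and B at 8. Without gene-rich wells, no member remained among the 25 cells of 10 somites on B (exact interval 0 to 13.7%), which allows a share of up to 12% by the limit of 3 counts. At 8 somites on the same plate 29 remained, a share of 17.2%, and at 10 somites on C 26, a share of 8.07%.

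Cells that met the same rule were more frequent at the younger stages when plates were pooled. Over all kept wells the share was 25.5% at 4 somites (19.8 to 31.7), 21.2% at 6 (18.5 to 24.1), 19.4% at 8 and 11.9% at 10. Leaving out gene-rich wells, the shares were 24.8%, 19.3%, 17.5% and 7.45%, in the same order of stages. On plate B alone the share under 9000 genes was 16.3% of 49 wells at 6 somites, 17.2% at 8 and 0 of 25 wells at 10. Over all kept wells of plate B it was 27.8% at 6 somites (20 of 72), 15.1% at 8 and 20% at 10, so it did not fall steadily. Stage and plate cannot be told apart in the pooled series. In these sorted cells, fewer dorsal tube cells in the embryo and fewer of them passing the sort cannot be told apart either.

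**Figure D2:**
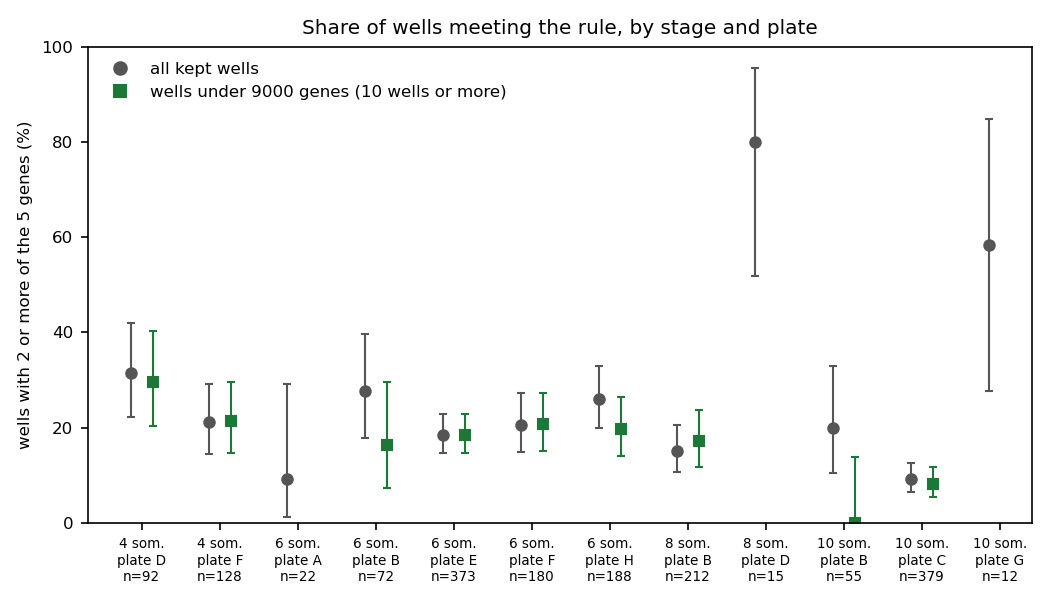
Share of kept wells with at least 2 of the 5 rule genes at 20 CPM or more (vertical axis, percent, with 95% exact binomial intervals) for each stage and plate (horizontal axis, n wells). The small pools of 8 somites on D and 10 somites on G, of 15 and 12 wells, stand at 80% and 58.3%, and the 10 somite pool on C at 9.23%.

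The levels of the rule genes in members are a description of the choice and not a finding. Irx2 stood at 20 CPM or more in 75 of 97 members (median 52.3 CPM, highest 594.02) and Wnt1 in 71 (median 70.1, highest 2791). Msx3 reached it in 61 members (median 31.4, highest 1615), Wnt3a in 46 (median 15.2, highest 764.6) and Olig3 in 25 (median 0, highest 775.2). Olig3 was the rarest of the 5, and each gene was at 0 reads in some members. Among other cells, Irx2 was at 20 CPM or more in 57 (9.9%), Wnt1 in 43 (7.47%), Msx3 in 13 (2.26%), Wnt3a in 8 (1.39%) and Olig3 in none, with a highest Olig3 value of 14.8 CPM. Just inside the threshold, the 41 members with exactly 2 genes had a second gene at 20.2 to 381.6 CPM (median 46.3). Just outside it lay cells with 1 gene, in 24 of which the second gene stood between 10 and 20 CPM. Only 3 of those 24 were in wells under 9000 genes.

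The 5 genes did not mark members evenly. The commonest combinations were Msx3 with Irx2 (12 members), Wnt3a with Irx2 and Wnt1 (11), and Irx2 with Wnt1 (10), and 7 members carried all 5. Of the 25 Olig3-positive cells 23 had Irx2, 20 had Msx3, 20 had Wnt1 and 8 had Wnt3a at 20 CPM or more. Across all genes, those whose CPM followed the number of rule genes most closely over the kept cells were Dpysl5 (Spearman 0.56), Rfx4 (0.55), Map1b (0.51), Plch1 (0.50) and Tspan13 (0.50). Dpysl5 belongs to the collapsin response mediators, Rfx4 is a winged-helix factor of the neural tube, and Map1b binds microtubules. The same 5 genes led in the wells under 9000 genes. These values describe cells that share pools and depth, and carry no test.

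**Figure D3:**
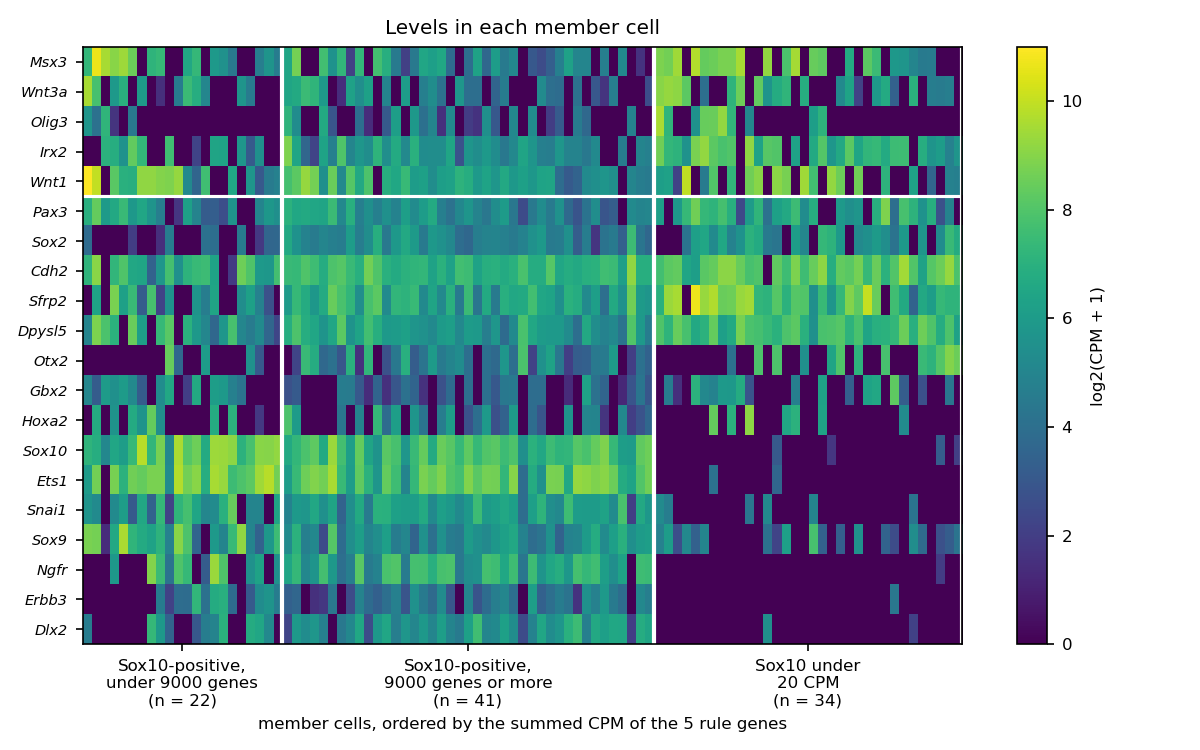
Levels of the 5 rule genes (top) and 15 other genes in each of the 97 members, as log2(CPM + 1) on the colour scale, with cells ordered by the summed CPM of the rule genes within 3 groups. Sox10 and Ets1 are bright in the 22 and 41 Sox10-positive cells and dark in the 34 cells at right, while Msx3 and Wnt1 are bright in parts of all 3 groups.

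The rule was met by different genes at different stages, which describes the choice of cells. Among wells under 9000 genes that met it, Msx3 reached 20 CPM in 11 of 53 cells at 4 somites (20.8%), 46 cells at 6 (30.7%), 21 of 30 at 8 (70%) and 17 of 26 at 10 (65.4%). Its level over the summed reads was 14.3, 47.5, 258.4 and 191.6 CPM in the same order. Chosen by the other 4 genes without Msx3, cells had it at 20 CPM or more in 7 of 49 at 4 somites (14.3%), 11.9% at 6, 13 of 22 at 8 (59.1%) and 10 of 19 at 10 (52.6%). Over all kept wells under 9000 genes, with no choice by rule genes, the shares were 6.07%, 8.11%, 14.6% and 6.30%, so the stages lay closer together there and 10 somites lay near the younger stages. On plate B it reached 20 CPM in 0 of 8 cells at 6 somites and 21 of 29 at 8. Olig3 reached it in 7.55%, 9.33%, 20% and 26.9% of cells from 4 to 10 somites. Wnt1 was at 20 CPM or more in 92.5%, 82.7%, 50% and 76.9%, with summed levels of 245.2, 204.3, 243.8 and 212.7 CPM that showed no such order. Hoxa2, a Hox gene of the hindbrain and its crest, was at 20 CPM or more in 1, 15, 7 and 8 of these cells from 4 to 10 somites. Its shares were 1.89%, 10%, 23.3% and 30.8%. Otx2, the forebrain and midbrain factor, reached 20 CPM in 29, 49, 8 and 7 cells, shares of 54.7%, 32.7%, 26.7% and 26.9%.

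The members came from more than 1 level of the head. Among the 56 in wells under 9000 genes, 14 had Otx2 at 20 CPM or more without a hindbrain gene, 30 had Gbx2, Egr2, Hoxa2, Hoxb1 or Hoxb2 without Otx2, 1 had both and 11 neither. Hindbrain genes without Otx2 thus marked 53.6% of these members (39.7 to 67.01), against 49 of the other cells in such wells, which is 10.6% (7.92 to 13.7). Among the other cells without Sox10 in such wells the order was reversed, with 57 (44.5%) carrying Otx2 alone and 15 (11.7%) hindbrain genes alone. The split was alike in the main pools: hindbrain genes alone marked 15 of 26 members at 10 somites on plate C and 15 of 29 at 8 somites on B, and Otx2 alone marked 7 and 6. In the 41 gene-rich members 10 had Otx2 alone, 17 hindbrain genes alone, and 7 both. Membership itself rests on genes that differ between these levels, so the rule takes part in setting this split.

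Msx3 and Olig3 were found mostly beside hindbrain genes. Both took part in choosing the members, so the values in members are a description. Msx3 was at 20 CPM or more in 2 of the 14 Otx2 members and 28 of the 30 hindbrain members, with summed levels of 4.65 and 343.2 CPM. Its highest value in any Otx2 member was 22.7 CPM, while the hindbrain members ran up to 1615 with a median of 268.9. Olig3 reached 20 CPM in 0 of 14 and 11 of 30. In contrast, Wnt3a reached it in 10 of 14 Otx2 members and 12 of 30 hindbrain members, Wnt1 in 11 and 16, and Irx2 in 11 and 21. Sox10 was at 20 CPM or more in 2 of the 14 Otx2 members and 14 of the 30 hindbrain members. The split of Msx3 held in both main pools, with 0 of 7 and 14 of 15 at 10 somites on plate C and 2 of 6 and 14 of 15 at 8 somites on B. When the other 4 genes alone chose the cells, Msx3 reached 20 CPM in 1 of 13 Otx2 cells and 16 of 18 hindbrain cells. In all kept wells of these stages under 9000 genes, chosen by no rule gene, it did so in 3 of 88 Otx2 cells (3.41%, 0.709 to 9.64) and 32 of 79 hindbrain cells (40.5%, 29.6 to 52.1), and Olig3 in 0 and 11 (13.9%). A count of 0 among 88 cells allows an Olig3 share of up to 3.41%.

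**Figure D4:**
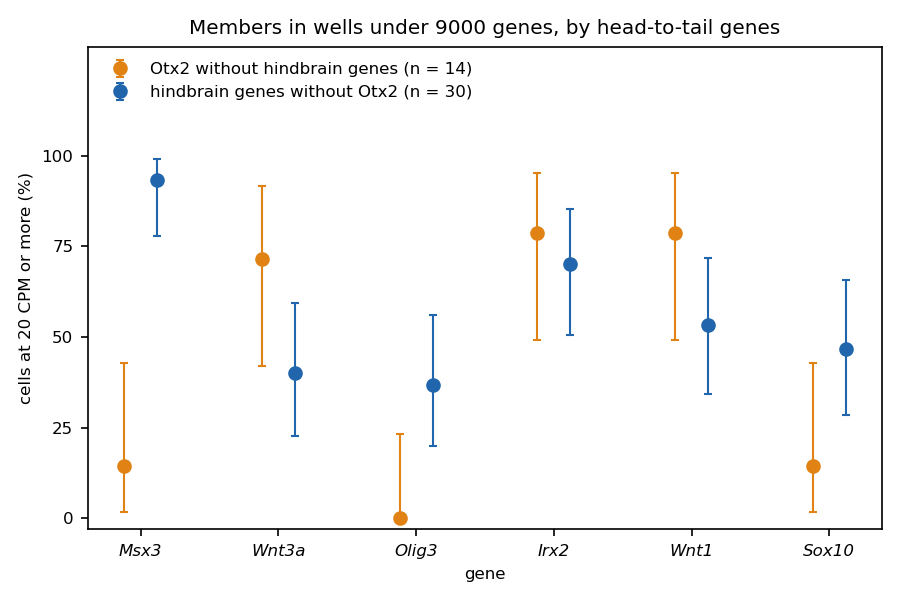
Share of members in wells under 9000 genes with each gene at 20 CPM or more (vertical axis, percent, 95% exact binomial intervals), for the 14 members with Otx2 alone and the 30 with hindbrain genes alone. The first 5 genes chose the members, so their shares are a description. Msx3 stands at 14.3% and 93.3%, and the intervals of Wnt3a, Irx2 and Wnt1 overlap.

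Other genes differed along with Otx2. Of 91 listed and named genes at least 2-fold apart with 20 CPM or more on either side, 29 rested on 1 cell. They fell short when the cell with most reads on either side was left out, and 5 genes changed direction. Otx1, a related head factor, had 79.97 CPM in the Otx2 members and 0.40 in the hindbrain members, and was at 20 CPM or more in 12 of 14 and 0 of 30. Dmbx1, a homeobox factor of the midbrain, had 95.9 CPM and no read in the hindbrain members, but only 5 of the 14 Otx2 cells reached 20 CPM. The Wnt ligand gene Wnt5b had 86.95 CPM in Otx2 members and 5.33 in hindbrain members, and was at 20 CPM or more in 11 of 14 and 1 of 30 cells. Wnt8b had 68.2 and 0.88 CPM in the same order. All Wnt5b reads of the hindbrain members came from 1 cell. Of the other 15 Wnt genes Wnt7b reached 20 CPM in 6 of the 14 Otx2 members and 0 of the 30, Wnt5a in 5 and 2, and Wnt9a in 2 and 5. Fam181b had 299.9 and 45.4 CPM, and Sp5, a target of Wnt signalling, 104.5 and 18.6. In the other direction, Fst, which encodes the activin and BMP antagonist follistatin, had 3.94 CPM in Otx2 members and 232.2 in hindbrain members, with 2 of 14 and 20 of 30 cells at 20 CPM or more. Crabp1, a cellular retinoic acid binding protein of hindbrain crest, had 108.96 and 1544 CPM and reached 20 CPM in 11 of 14 and 30 of 30. The crest genes Sox9, Snai1 and Ngfr were also lower in the Otx2 members, at 9.12 against 99.1, 1.43 against 47.9 and 1.43 against 44.97 CPM in hindbrain members. The groups differed in Sox10 too, with 2 of the 14 and 14 of the 30 Sox10-positive. Hindbrain members with Sox10 had Ngfr at 90.1 CPM, and those without Sox10 at 0. The part of Sox10 in the differences of Crabp1, Sox9, Snai1 and Ngfr was not tested. Epcam, an epithelial surface gene, had 72.5 CPM in Otx2 members and 2.08 in hindbrain members, but only 2 of the 14 and 1 of the 30 cells reached 20 CPM, and 0.59 CPM remained in Otx2 members without 1 cell at 737.1 CPM.

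Against the other cells of the same stages, named genes of the dorsal tube and of the hindbrain were higher in the members, and several of the skeletogenic crest were lower. Ratios are log2 ratios of CPM over summed reads, and a gene counts as called when it differs at least 2-fold with 20 CPM or more on either side. Of 7186 genes tested 2.1% were called higher in members and 1.27% lower. In wells under 9000 genes 4.42% of 7334 were called higher and 2.97% lower. The median over all genes was 0.01 and 0.02. A gene that reaches 20 CPM on 1 side alone is nearly bound to be called, so counts and medians over the dorsal tube, hindbrain and other lists describe those lists and support nothing. Of 89 list and named genes called here, 16 lost the call without the cell that gave most reads on either side, and none changed direction.

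Of 18 dorsal neural tube genes outside the rule, 6 passed the CPM minimum and all 6 were called higher, with a median of 2.20, and 7 of 7 with a median of 2.97 in wells under 9000 genes. Fzd10, a Wnt receptor of the dorsal tube, had 20.7 CPM in members and 3.19 in other cells, and Msx1, a homeobox factor downstream of BMP, 32.2 and 8.78. Pax3, a paired-box factor of dorsal tube and crest, had 65.7 CPM in members (95% interval 63.3 to 68.1) and 22.02 in other cells (21.4 to 22.6). It was higher in all 3 pools with at least 10 cells a side, by 1.61, 1.75 and 1.91. Of a list of 13 hindbrain genes 5 reached 20 CPM, all through the members, with a median ratio of 2.61. Hoxa2 had 33.6 CPM in members and 3.58 in other cells, and Hoxb1 34.2 and 5.59. Egr2, the zinc finger factor of rhombomeres, had 20.6 and 1.76 CPM, and 12.8 in members without 1 cell at 1463 CPM.

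A minority of the neural progenitor and Notch genes were called higher. Of 14 neural progenitor genes 7 were tested, all above 0 with a median of 0.75, and 2 of them were called higher. Sox21, a SoxB factor of progenitors, had 41.1 CPM in members and 17.7 in other cells, and Sox2, the progenitor factor, 37.4 and 19.1. Hes5, a Notch target, had 29.8 and 7.72 CPM. Of 8 Notch pathway genes tested, 3 were called higher, Dll1, Hes3 and Hes5, and none lower (median 0.72). Dll1, a Notch ligand, had 26.99 CPM in members and 11.9 in other cells, but on plate B at 10 somites the ratio was -1.61 in gene-rich members. Without the cell with most reads the ratios of Sox21 and Dll1 in members were 0.99 and 0.87, under the 2-fold limit. Of 9 Wnt response genes tested, 4 were called higher. Axin2, a feedback inhibitor, had 39.5 and 13.2 CPM, Nkd1 92.6 and 42.3, Sp5 35.9 and 13.6, and Sfrp2, a secreted Wnt modulator, 182.1 and 68.8. Lef1 (65.2 and 59.8) and Tcf7 (76.3 and 69.9), the transcription factors of that pathway, differed by 0.13 each.

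Among BMP pathway genes the targets Id2 and Id3 had 371.2 and 784.1 CPM in members and 224.2 and 438.5 in other cells, and Id1, the related target, 100.9 and 119.1. Of 7 tested, Bmper alone was called. The retinoic acid binding genes Crabp1 and Crabp2 had 791.7 and 346.7 CPM in members and 400.4 and 129.5 in other cells. Cell cycle genes were close to level: the median was 0.08 over 29 S phase genes and 0.06 over 33 G2 and M phase genes, with none called either way.

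The largest ratio by the naming rule was that of Fgf15, an FGF ligand of the neural tube, which had 134.7 CPM in members (131.4 to 138.2) and 28.1 in other cells (27.5 to 28.8), a log2 ratio of 2.26. Wscd1 had 148.2 and 33.2 CPM, and Fst 99.5 and 23.2. Boc, a hedgehog co-receptor, had 95.9 and 23.3 CPM, and its ratio was 2.37 and 2.39 in the pools of 8 somites on plate B and 10 somites on C, against 0.54 in the gene-rich members of 10 somites on B. The ephrin receptor genes Epha7 and Ephb1 had 106.5 and 54.9 CPM in members and 27.9 and 20.2 in other cells. Fam181b, Mycl, Epb41l4a, Atp6v0e2 and Wfikkn1, with Pax3, filled the rest of the 12, at ratios of 1.43 to 1.98. All 12 kept their direction in the 3 pools, as the rule asks, and in wells under 9000 genes their ratios were 1.88 to 2.81.

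Only 7 genes met the naming rule as lower in members. Alx1, a homeobox factor of frontonasal crest, had 17.8 CPM in members (16.6 to 19.1) and 66.8 in other cells (65.8 to 67.9), a ratio of -1.91. In wells under 9000 genes it had 4.96 and 68.3 CPM, a ratio of -3.78. Egfl7, a gene best known from endothelium, had 24.5 and 86.3 CPM, and Cnn2, an actin-binding calponin, 130.5 and 387.1. Hapln1, Foxo1, Col23a1 and Sh3bp5 had ratios of -1.39 to -1.13. Of 17 ectomesenchyme genes, those of the crest that forms skeleton and connective tissue, 10 were tested: 7 were called lower and 1 higher, with a median of -1.24, and of -2.80 in wells under 9000 genes. Dlx2 had 32.7 CPM in members and 69.5 in other cells, Pdgfrb 14.3 and 38.02, Col1a2 28.96 and 76.1, and Foxc1 5.61 and 22.5. The exception was Dlx5, with 28.2 CPM in members and 9.36 in other cells. Of 13 migrating crest genes tested, 4 were called lower and none higher (median -0.48), among them Erbb3, a neuregulin receptor, with 13.6 and 39.7 CPM, and Itga4, an integrin subunit, with 8.26 and 26.9. Crest specifiers had a median of -0.55 over 11 genes, with 1 called lower, Twist1 at 12.2 and 25.4 CPM.

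**Figure D5:**
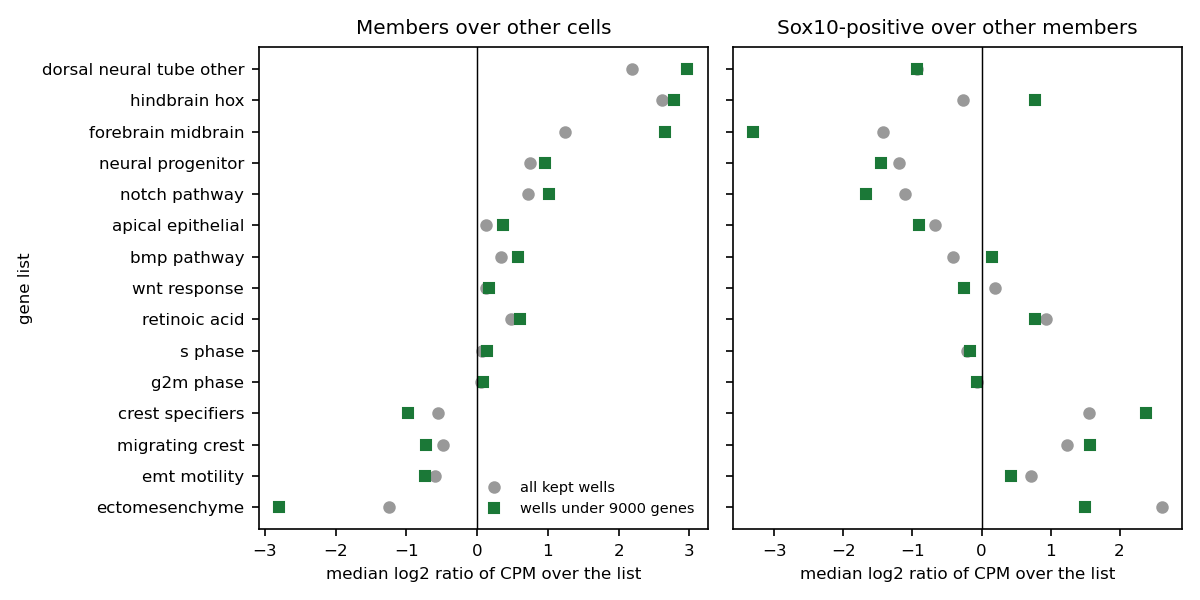
Median log2 ratio of CPM over the tested genes of each list (horizontal axis), for members over other cells (left) and Sox10-positive members over other members (right), in all kept wells (circles) and wells under 9000 genes (squares). Dorsal tube and hindbrain lists lie to the right of 0 in members, ectomesenchyme to the left, and crest specifiers and migrating crest lie to the right of 0 among Sox10-positive members.

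The share of Sox10-positive cells differed as well: it was 64.9% in members (54.6 to 74.4) and 77.6% in other cells (73.98 to 80.9). In wells under 9000 genes it was 39.3% in members (26.5 to 53.2) and 72.4% in other cells (68.1 to 76.4). With Sox10 under 20 CPM on both sides, 34 members stood against 19.2% of the kept cells. Of 7631 genes 2.92% were called higher and 5.83% lower. For the dorsal tube list the median was 1.88 over 8 tested genes, and for the hindbrain list 2.99 over 3, with the same limit on what such medians show. The neural progenitor list came down to 0.27 with 2 of 9 called, and the list of forebrain and midbrain genes went to -0.23, against 1.24 over all cells. Levels given next are for the 34 members and the other such cells in wells under 9000 genes. Sox2 had 54.3 CPM in members and 44.96 in those cells, Prom1, an apical membrane gene, 207.4 and 221.3, and Otx2 85.3 and 92.6. Pax3 had 96.5 and 5.82 CPM, Fzd10 36.3 and 7.24, and Hoxa2 37.9 and 0.0748. Sox2, Prom1 and Otx2 were thus at similar levels in both groups. Summed progenitor markers had a median of 828.5 CPM in the 34 members and 586.2 in those other cells. Pax3 and Fzd10 were much lower in those other cells, which the rule set apart by their lack of dorsal genes.

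Transcripts of other tissues stood higher in the other cells without Sox10. Against them, all 8 tested endothelial genes and 10 of 11 surface ectoderm genes were called lower in the 34 members, against 5.83% of all 7631 genes. Genes that reach 20 CPM through the other cells alone are nearly bound to be called lower, so these counts describe the lists. Esam, an endothelial junction gene, had no read in the 34 members and 140.2 CPM in the other cells without Sox10, Plvap 0.34 and 94.1, and Krt8, a simple epithelial keratin, 104.5 and 432.7. The summed endothelial markers ran from 0 to 88.3 CPM in these members and from 0 to 6676 in those other cells. The median was 0 in both and the upper quartile 2.15 and 17.9 CPM, so few of those other cells carried most of these transcripts. Surface ectoderm markers summed to a median of 80.9 CPM in members (0 to 5205) and 149.2 in those other cells (0 to 19853). The share of other tissues in these ratios was not tested. In 1 Sox10-positive member under 9000 genes Kdr, the endothelial VEGF receptor, stood at 1349.8 CPM.

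The members with Sox10 carried the rule genes together with crest genes, and their progenitor transcripts lay below those of the members without Sox10. Summed progenitor markers had a median of 363.6 CPM in the gene-rich Sox10-positive members and 323.3 in those under 9000 genes, against 828.5 in the members without Sox10. Of the 63, 41 were in gene-rich wells, so the 22 in wells under 9000 genes are described first, against the 34 members without Sox10, all of which are in such wells. Sox10 ran from 32.7 to 905 CPM in the 22 (median 248.1) and was at 0 reads in 30 of the 34. Msx3 was at similar levels in both, with 232.1 CPM in Sox10-positive members and 235.5 in the others. Wnt3a had 91.1 CPM in the Sox10-positive members and 102.2 in the others, but 1 cell at 764.6 CPM gave 56.3% of the reads of the 22, which stood at 42.7 CPM without it. Wnt1 had 359.04 and 156.3 CPM, and the same cell, at 2791 CPM, gave 52.2% of the reads of the 22. Without that cell they stood at 184.1 CPM, a ratio of 0.24 in place of 1.20. Irx2 had 67.2 and 175.5 CPM, and Olig3 15.7 and 73.1, or 6.06 in the 22 without the cell that gave most of their reads. The summed CPM of the 5 genes had a median of 476.2 in Sox10-positive members and 756.9 in the others.

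In wells under 9000 genes the SoxB factors of neural progenitors were low beside Sox10. Sox2 had 4.85 CPM in the 22 Sox10-positive members and 54.3 in the 34 others, with 2 of 22 and 23 of 34 cells at 20 CPM or more. Its median over cells was 0 in Sox10-positive members, with a highest value of 24.2 CPM, and 40.9 CPM in the others. Sox1 had 2.14 and 22.4 CPM, and Hes5 4.62 and 49.3. Cdh2, the neural cadherin, had 126.2 and 289.7 CPM, so it was lower by less than the SoxB factors. Sfrp2 had 56.8 and 361.9 CPM. Of 9 progenitor genes tested 8 were called lower and none higher (median -1.46), and of 9 Notch pathway genes 6 were lower and none higher (median -1.67). Over all genes in these wells 3.8% of 7457 were called higher and 7.55% lower. A gene that reaches 20 CPM on 1 side alone is nearly bound to be called, so the counts describe the lists. Of 97 list and named genes called between the 22 and the 34, 25 lost the call without the cell with most reads on either side. Of the 97, 2 changed direction. The median of summed progenitor markers in other Sox10-positive cells under 9000 genes was 156.3 CPM, so that of the 22 lay between those cells and the members without Sox10.

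Crest genes were present in most of the Sox10-positive members. Ets1, a factor of cranial crest, reached 20 CPM in 21 of 22 Sox10-positive members and in none of the 34 others, where 32 cells had no read and the highest value was 16.4 CPM. Snai1, a repressor of epithelial genes, had 91.6 and 4.76 CPM, Sox9, an early crest factor, 216.6 and 20.7, and Tfap2b, another crest factor, 71.2 and 9.25. Foxd3 had 24.2 and 2.52 CPM. Ngfr, the low-affinity neurotrophin receptor of migrating crest, had 89.9 CPM (83.7 to 96.3) in Sox10-positive members and 1 read in all the others (0.068 CPM, interval 0.00172 to 0.379). Only 10 of the 22 had it at 20 CPM or more, with values from 0 to 644.99 and a median of 12.7. Crest specifiers had a median ratio of 2.39, with 6 of 11 tested called higher, and migrating crest genes one of 1.57, with 8 of 12. Over all genes 3.8% of 7457 were called higher. Sox10, a crest gene, chose the sides, and genes that reach 20 CPM beside it alone are nearly bound to be called. These counts and medians therefore describe the lists. Summed migrating crest markers had a median of 1365 CPM in the 22, 393.1 in members without Sox10 and 1778 in the other Sox10-positive cells of such wells.

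Over all 63 Sox10-positive members, 2.81% of 7437 genes were called higher and 4.6% lower than in the 34 others. By the naming rule the higher genes were Ngfr (109.4 CPM in Sox10-positive members, 0.068 in the others, from 1 read), Ets1 (308.97 and 0.48), Cdk18 (59.2 and 0.068, also from 1 read), Fam212a (123.3 and 0.54), Ret, a receptor of glial derived neurotrophic factor (52.5 and 1.43), and Sox10 itself, which defined the groups. The lower genes were Fgf17, an FGF ligand (4.56 and 69.6 CPM), Gdpd1 (10.4 and 68.05), Tmem170b (7.88 and 50.9), Myo5b (20.2 and 101.8), Dll1 (11.97 and 57.4) and Mapk10 (15.1 and 68.2). In gene-rich members Sox2 reached 20 CPM in 33 of 41, with a median of 26.9 CPM and no cell at 0, and 40 of these 41 had Ets1 at 20 CPM or more. Sox2 and Ets1 at 20 CPM or more together were thus common in gene-rich wells and rare in the others. The part of wells with more than 1 cell in this was not tested.

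The head-to-tail level of the cells moved with Sox10, so the comparison was repeated in hindbrain members alone. In wells under 9000 genes these were 14 with Sox10 and 16 without, and 7.1% of 7495 genes were called higher and 12.8% lower. Sox2 had 2.71 CPM in Sox10-positive hindbrain members and 63.7 in the others, Sox21 4.62 and 84.9, and Hes5 5.10 and 51.2. Snai1 had 92.6 and 3.34 CPM and Ets1 351.4 and 0.64, and Sox9 a ratio of 3.66. Wnt1 had 434.3 and 90.4 CPM, and 187.3 in the Sox10-positive cells without the 1 cell at 2791 CPM. Crabp1 had 2421 and 669.6 CPM. Hoxb1, of the fourth rhombomere, had 139.7 and 25.6 CPM, all reads of the cells without Sox10 coming from 1 cell. The direction of each of these genes was that seen over all members under 9000 genes. Of 98 list and named genes called among hindbrain members, 26 lost the call without the cell with most reads on either side, and 1 changed direction.

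Against Sox10-positive cells that did not meet the rule, the Sox10-positive members had more Fgf15, Epha7 and Dpysl5 transcripts and fewer of Alx1 and several ectomesenchyme genes. Dorsal tube transcripts separate these groups by choice and are not compared. Dpysl5 and Fgf15 followed the number of rule genes over the kept cells (Spearman 0.56 and 0.47), so their ratios also describe that choice. Of 7065 genes 2.32% were called higher in the 63 members and 0.51% lower than in the other Sox10-positive cells, which were 66.4% of the kept cells. Under 9000 genes, 22 members stood against 49.9% of the kept cells, and 4.62% of 7159 genes were higher and 3.03% lower. Of 90 list and named genes called there, 23 lost the call without the cell with most reads on either side, and none changed direction. Fgf15 had 120.2 CPM in the members (116.3 to 124.2) and 13.1 in the others (12.6 to 13.6), and 148.3 and 3.78 in wells under 9000 genes. Epha7 had 99.3 and 14.6 CPM, and Dpysl5 93.9 and 17.4. Nuak2, a kinase of the AMPK family, Trp53i11 and Mycl had 72.7, 87.3 and 69.6 CPM in members and 13.7, 18.7 and 16.5 in the others. The lower genes were Alx1 (26.6 and 83.3 CPM), Lama4, a laminin chain (22.6 and 57.2), Pdlim1, Dnajc1, Foxo1 and Cnn2, the last 4 by -1.22 to -1.09.

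Of the hindbrain list 3 genes reached 20 CPM over all wells and 5 in wells under 9000 genes, each through the members, with median ratios of 2.79 and 3.18 that the CPM minimum helps to set. Crabp1 and Crabp2 had 1845 and 625.4 CPM in the 22 members and 529.8 and 125.6 in the others. Tfap2c, a factor of the neural plate border and surface ectoderm, had 103.7 and 7.51 CPM. The summed surface ectoderm markers, which include it, had a median of 147.6 CPM in the 22 members and 60.8 in the others. Snai1 (91.6 and 112.2 CPM) and Ets1 (370.7 and 519.4) were lower than in other Sox10-positive cells by less than 2-fold, and Sox9 was higher at 216.6 and 69.01. Of 10 ectomesenchyme genes tested in wells under 9000 genes, 7 were called lower in the members (median -2.08), among them Dlx2 with 23.5 and 99.7 CPM and Twist1 with 8.46 and 32.8. Of 14 migrating crest genes 6 were called lower and 1 higher (median -0.06), with Mef2c at 36.4 and 201.3 CPM and Itga4 at 5.98 and 37.2. Over all genes in these wells 4.62% of 7159 were called higher and 3.03% lower. Genes that reach 20 CPM through the other cells alone, as Twist1 and Itga4 do, are nearly bound to be called lower. These counts and medians therefore describe the lists. Erbb3 had 24.9 CPM in members and 55.1 in the others. S and G2 and M phase genes had medians of 0.03 and 0.02 in these wells.

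Stage could be compared within members only with limits. Plate B held 11 members of 10 somites and 32 of 8 somites, and all 11 were in gene-rich wells, against 3 of the 32. All 11 were also Sox10-positive, against 16 of the 32, so Sox10 state and gene-rich wells differ with stage there. There 5.88% of 7417 genes were called higher at 10 somites and 6.34% lower. Over the wells under 9000 genes of all plates, 26 members of 10 somites stood against 30 of 8, with 3.95% of 7447 genes higher and 3.59% lower. All 26 of these came from C and 29 of the 30 from B, so stage and plate cannot be told apart. Of 33 list and named genes called in these wells, 22 lost the call without the cell with most reads on either side, and 1 changed direction. On plate B 25 of 94 lost it and none changed direction. Cpm, which encodes carboxypeptidase M, had 60.7 CPM in 10 somite members and 0.31 in 8 somite members on plate B, and 38.9 and 0.20 in wells under 9000 genes. Ckb, the brain creatine kinase, had 106.8 and 6.10 CPM, and 69.4 and 5.65 in the second comparison. Both genes were higher at 10 somites in either comparison. The 29 plate B members of 8 somites under 9000 genes are in both, so the 2 comparisons are not independent. Selenop had 54.4 and 2.38 CPM on plate B and a ratio of 2.25 in wells under 9000 genes.

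Bgn and Capn6, higher at 10 somites on plate B with 64.4 and 167.5 CPM against 3.42 and 12.9 at 8 somites, went the other way in wells under 9000 genes, with ratios of -2.78 and -1.91. Tbx3 had 63.2 and 3.60 CPM on plate B and a ratio of 0.57 in wells under 9000 genes. Fgf17 and Hes3 were lower at 10 somites on plate B, with 1.57 and 4.71 CPM against 59.2 and 58.5 at 8 somites. Their ratios in wells under 9000 genes were -2.24 and -1.37, and -0.71 for Hes3 without 1 cell of 8 somites. Fgf17 and Gdpd1 were also among the genes lower in Sox10-positive members, which make up more of the 10 somite cells on B. Gdpd1 and Irx5 had ratios of -3.61 and -3.08 on plate B and -0.91 and -0.55 in wells under 9000 genes, and Apcdd1 -3.59 and 0.35. Of the lists, ectomesenchyme had a median of 2.20 on plate B, with 6 of 9 tested genes higher, and of -0.60 over 3 genes in wells under 9000 genes. Over all genes on plate B 5.88% of 7417 were called higher, and the CPM minimum helps to set such counts. The 5 rule genes chose the members at both stages and are not compared between them.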

How the data were processed

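The authors deposited 1 table of read counts, whole numbers per gene and cell with no normalization, for 24920 genes, 92 spike-ins and 1778 cells, each cell being 1 sample of the series. The tools bcl2fastq 2.18 and STAR 2.6 and the build mm10 are listed in the submitters' processing notes. The counter, the annotation and any step that removed cells were not given in the sources used here. Single cells were sorted into lysis buffer, per the labels' protocols, and no doublet caller was run.

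Wells of 8 and 10 somites needed 50000 reads on genes and 1500 detected genes, which left out 6 of 679. The 673 kept cells were 97 members and 576 others. Of the members 56 and of the others 464 lay in wells under 9000 genes, and 447 of the others were Sox10-positive. CPM leave out spike-ins and Rn45s. The members, the gene lists and the comparisons were chosen with earlier results of these data known. The limit of 9000 genes was set after the data were seen.

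Reads were summed over the cells of a group, 0.5 reads were added, and log2 ratios of CPM were taken, with exact Poisson intervals at 95%. Shares have exact Clopper-Pearson intervals. Since no embryo is named, cells were not used as replicates and no p-value is given. Named genes had at least 50 CPM in the higher group, a read in at least 20% of its cells thinned to 50000 reads, and a ratio of the same sign and at least 0.5 in each pool of a plate and stage with at least 10 cells a side. The 12 largest each way were taken for members against other cells and the 6 largest each way otherwise, with up to 4 genes of each list and those a sentence needed as markers. Some genes this rule names are not reported here. Of the 673 kept cells 669 could be thinned. Genes whose position is given were looked up by symbol in GENCODE vM21.

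Alternatives were other CPM limits, 3 of the 5 genes, the rule without Wnt1, CPM with Rn45s, stricter cell filters, 5 added reads, no CPM minimum, the mean within pools, edgeR and DESeq2 scaling, and leaving out plates. Python 3.11.15, numpy 2.4.6, scipy 1.17.1, pandas 2.3.3, and R 4.3.3 with edgeR 4.0.16 and DESeq2 1.42.0 (for scale factors alone) were used. The log2 ratios were tested on Poisson counts drawn around the summed reads with known folds. That simulation held no spread between cells and did not cover the choice of members or the thinning.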

Additional observations from a re-analysis of the deposited data

How the results depend on the processing

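No paired analysis was possible because the labels number no replicates and name no embryo. Members were 14.4% of kept cells. The share was 18.1% with 10 CPM as the limit, 9.96% with 50 CPM, 8.32% with 3 of the 5 genes, 10.3% with Rn45s in the CPM total, 10.7% without Wnt1 among the markers, 21.1% without plate C and 10.8% in wells under 9000 genes. The Sox10-positive share of members, 64.9%, was 50.7% at 50 CPM and 39.3% in wells under 9000 genes. Without a CPM minimum the shares of tested genes called higher and lower came to 10.9% and 14.8% for members, 17.6% and 13.2% for Sox10-positive members against other members, 12.9% and 12.7% against Sox10-positive other cells, and 13% and 20.04% for 10 against 8 somite members, as genes with few reads then enter. For members against other cells the shares were 4.42% and 2.97% in wells under 9000 genes, and 5.83% were lower with Sox10 under 20 CPM on both sides, against main values of 2.1% and 1.27%. Sox10-positive members against other members gave 4.31% and 7.12% with 3 of the 5 genes, 7.55% lower in wells under 9000 genes, and 7.1% and 12.8% in hindbrain members, against 2.81% and 4.6%. Sox10-positive members against other Sox10-positive cells gave 3.54% and 1.05% at 50 CPM, 4.62% and 3.03% in wells under 9000 genes, and, of lower genes, 0.878% with the mean within pools and 1.12% with 3 of the 5 genes, against 2.32% and 0.51%. For 10 against 8 somite members the shares were 2.1795% and 1.72% over all plates, 9.69% and 11.3% with 3 of the 5 genes, 9.32% and 9.79% at 50 CPM, and 3.59% lower in wells under 9000 genes, against 5.88% and 6.34%. The forebrain and midbrain list, relative to all genes, went to -0.25 with Sox10 under 20 CPM on both sides, and Bgn, Capn6 and Apcdd1 went to -2.78, -1.91 and 0.35 in wells under 9000 genes; the cause was not tested. The other values were counted once for each alternative setting, so the same share, gene or list is counted several times. Of these, 79 values of shares and 1000 values of single genes and lists stayed within the limits set for them. A further 290 values of genes and lists moved by more. For list medians under 1 in size, 42 alternative values over 19 lists had the other sign. Without the 1 Otx2 member that gave Epcam most reads, its ratio against hindbrain members went to -1.66. All wells under 9000 genes, hindbrain and single-cell settings, and the rule without Msx3 or Olig3, were added after the data were seen. Limits are the pools, which tie stage to plate, the gene-rich wells, which hold 41 of the 63 Sox10-positive members, and counts of 22 and 34 cells, where single cells can carry a gene.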
